A study of Mus musculus with 4 samples.

Results

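The receptors for lysophosphatidic acid (LPA) and sphingosine 1-phosphate (S1P) were followed in bronchial epithelium isolated from mice with antigen-induced asthma and from control mice. Their members were taken by gene name from the array's own annotation, which gave 10 genes with 12 probes among 28663 genes and 39429 probes in all. They are the LPA receptor genes Lpar1, Lpar2, Lpar3, Lpar4 and Lpar6 and the S1P receptor genes S1pr1, S1pr2, S1pr3, S1pr4 and S1pr5. The study asked how deletion of Pla2g3, the gene of the secreted group III phospholipase A2, bears on gene expression in these cells. Its 4 groups were antigen-challenged and control cells labelled Pla2g3-/-, and antigen-challenged and control cells of wild-type mice (Pla2g3+/+). Challenged mice had received 10 µg of ovalbumin with 1.3 mg of alum on days 0 and 14. They later breathed a 1% ovalbumin aerosol for 30 min on each of days 26, 27 and 28, and cells were isolated from their lungs 3 h after challenge. What control mice received, and the animals' strain and age, were not stated in the labels, and a challenge effect can include sensitisation. Each group was 1 single-colour array of RNA pooled from 4 samples, so no difference has a replicate check and a single difference has no p-value.

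LPA and S1P are small lysophospholipids that act outside the cell through G protein-coupled receptors. LPA is made mainly by autotaxin (Enpp2) from lysophospholipids, the kind of product that secreted phospholipases A2 release, and S1P is made by sphingosine kinases inside the cell and then exported. The LPA receptors fall into an EDG family (Lpar1, Lpar2 and Lpar3), which is related to the S1P receptors, and a P2Y-related family (Lpar4 and Lpar6). In the lung, LPA receptors are known for roles in epithelial repair, barrier function and cytokine release. S1P receptors are known for endothelial barrier function and for the exit of lymphocytes from tissues.

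Pla2g3 itself went against the labels. Its brighter probe read 4154 and 2023 intensity units on the challenged and control arrays labelled Pla2g3-/-, against 254 and 239 on the wild-type arrays. Its dimmer probe read 336 and 177 units on the challenged and control arrays labelled Pla2g3-/-, against 13.1 and 44.1 on the wild-type arrays. Both probes were thus higher under the Pla2g3-/- label. The deleted part of the gene is not stated, so whether either probe lies in it is not known. Genotype directions below therefore rest on the labels as given. Airway epithelial markers were looked at for the labelled cell type. All 10 of them, among them Scgb1a1, Krt5 and Foxj1, were well above background on all 4 arrays, and their median difference lay between −0.08 and 0.04 in the 4 contrasts. On all 4 arrays 22234 of 28663 genes passed that limit, as did all 8 B cell markers. Passing it therefore does not tell cell types apart. Markers of developing T cells were highest on the control array labelled Pla2g3-/-. There 8 of 8 were at least 2-fold higher than on the wild-type control array, against 3.19% of all genes. Their median log2 difference was 4.50. Between the challenged arrays 5 of 8 were at least 2-fold higher under the Pla2g3-/- label, with a median of 1.22, against 3.84% of all genes.

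The probes that carry the results are shown first, because a receptor's value here is the signal of a 60-base oligonucleotide. Lpar2 and Lpar6 had 2 probes each, and S1pr1 and S1pr5, which differed most among the S1P receptors, had 1 each. The Lpar2 probes lie at chr8:72354818-72354877 (brighter) and chr8:72350307-72350366 (dimmer), both on the plus strand of mm9, with starts 4511 bases apart and no common run above 5 bases. The Lpar6 probes lie at chr14:73639469-73639528 and chr14:73639502-73639561 on the plus strand, with starts 33 bases apart. The S1pr1 probe lies at chr3:115414020-115414079 and the S1pr5 probe at chr9:21047372-21047431, both on the minus strand. All are written 5′ to 3′, with the dimmer Lpar2 probe in full. Of the brighter Lpar6 probe the last 30 bases are shown, and of the others the first 30. Capitals mark the 27 bases that the Lpar6 probes share.
Lpar2 brighter probe: cctcacaagtttggaccactaatatgtttt
Lpar2 dimmer probe: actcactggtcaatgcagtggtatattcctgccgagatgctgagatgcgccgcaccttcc
Lpar6 brighter probe: tggGAACTATCTCTCCGGCTCCAACAAAAA
Lpar6 dimmer probe: GAACTATCTCTCCGGCTCCAACAAAAAata
S1pr1 probe: aagatgaaaatgtgttccttttttgtcaca
S1pr5 probe: gcacatggtacaaagattgaatgcaggcaa

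All 12 probes were well above background on all 4 arrays, so every receptor had a measured value in every contrast and none was a bound. Signals below are the scanner's processed signal in intensity units. Differences are log2 differences after each array was scaled to its 75th percentile, so 1 is a 2-fold difference. Levels of different probes were not compared with each other, because brightness also depends on the probe. The only error available for a difference between 2 arrays was the scanner's own, which was 0.20 to 0.26 for the probes that stand for the receptors and does not cover animals, pools or labelling.

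S1pr1 and S1pr5 were the receptors that differed by 2-fold in at least 1 of the 4 contrasts, as 12.7% of all genes did. Challenge in cells labelled Pla2g3-/- had 0 of 10 receptors at least 2-fold higher and 1 lower (S1pr5), where 3.86% and 3.42% of all genes were so. Challenge in wild-type cells had 0 higher and 0 lower, against 1.81% and 1.68% of all genes. Between the challenged arrays, 0 receptors were at least 2-fold higher and 0 lower in cells labelled Pla2g3-/-, against 3.84% and 2.48% of all genes. Between the control arrays, 0 were higher and 1 was lower (S1pr1), against 3.19% and 1.79% of all genes. With 10 receptors, these counts are near the background. At 1.5-fold, challenge in cells labelled Pla2g3-/- had 0 receptors higher and 4 lower (Lpar2, Lpar3, Lpar4 and S1pr5), against 7.72% and 9.95% of all genes. Challenge in wild-type cells had 0 higher and 3 lower (Lpar2, S1pr1 and S1pr4), against 4.59% and 5.25%. Between the challenged arrays 0 were higher and 2 lower (Lpar2 and Lpar4) in cells labelled Pla2g3-/-, against 7.83% and 7.14%. Between the control arrays 1 was higher (S1pr5) and 2 were lower (Lpar2 and S1pr1), against 6.62% and 5.80%. The receptors' median difference was −0.39 for challenge under the Pla2g3-/- label, −0.23 for challenge in wild-type cells, −0.17 for genotype with challenge and 0.00 for genotype without it. The median of all genes measured was −0.06, −0.03, −0.05 and −0.03 in the same contrasts.

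**Figure D1:**
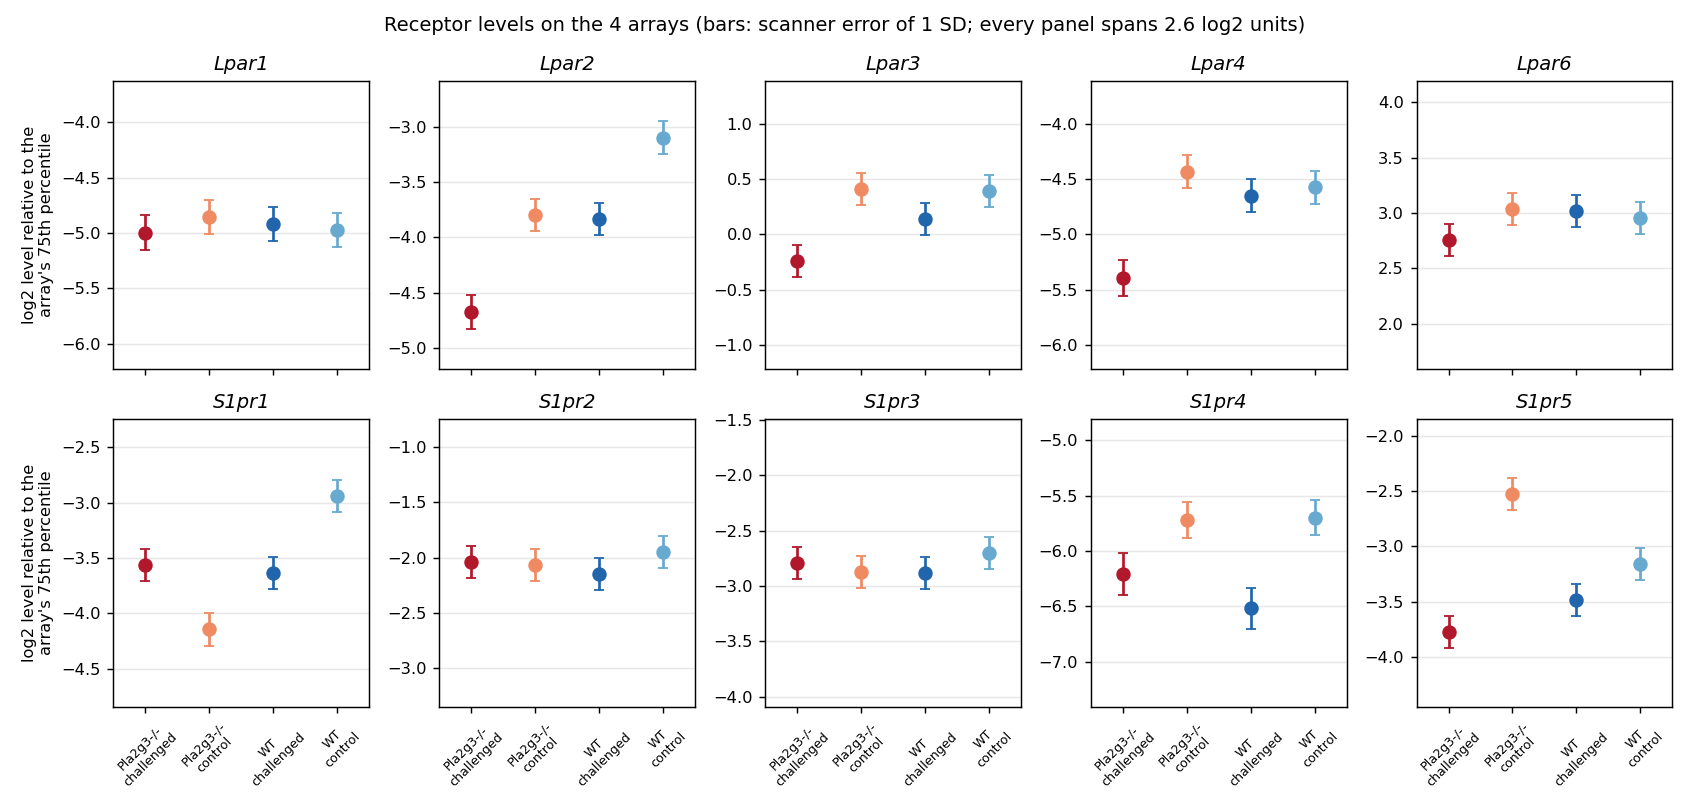
Level of each receptor on the 4 arrays, as log2 signal relative to the array's 75th percentile, with the scanner's error as bars; challenged and control arrays labelled Pla2g3-/- stand left of the wild-type arrays. Each panel spans the same number of log2 units around its own middle, so Lpar2 (range 1.58), S1pr5 (1.25) and S1pr1 (1.20) show more spread than Lpar6 (0.28) or S1pr3 (0.18).

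Among the EDG-family LPA receptors, Lpar2 had the widest range of the 10 receptors over the arrays. Lpar2 couples to several G proteins and binds scaffold proteins through its C-terminal tail. Its brighter probe read 77.3 units on the challenged and 132 on the control array labelled Pla2g3-/-, against 127 on the challenged and 232 on the control array of wild-type cells. The signal was thus lowest on the challenged array labelled Pla2g3-/- and highest on the wild-type control array, 2.99-fold apart, with the other two arrays between them. The log2 difference with challenge was −0.88 in cells labelled Pla2g3-/- and −0.74 in wild-type cells. The difference between genotypes was −0.84 with challenge and −0.70 without it. In this bulk RNA, fewer cells of a type and less RNA per cell cannot be told apart.

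The dimmer Lpar2 probe did not show this pattern. It read 17.0 and 15.9 units on the challenged and control arrays labelled Pla2g3-/-, against 12.4 and 17.5 units on those of wild-type cells. Its range was 0.36, and its log2 difference with challenge was −0.01 in cells labelled Pla2g3-/- and −0.36 in wild-type cells. Between genotypes it differed by 0.32 with challenge and −0.02 without it. Its scanner error was 0.30 to 0.34 in these contrasts, so the −0.36 and the 0.32 are about the size of the error. The Lpar2 differences therefore rest on 1 probe. The mean of both probes gave −0.45 for challenge under the Pla2g3-/- label and −0.26 between the genotypes with challenge. With normexp background correction the brighter probe gave −0.59 and −0.54 in these contrasts.

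**Figure D2:**
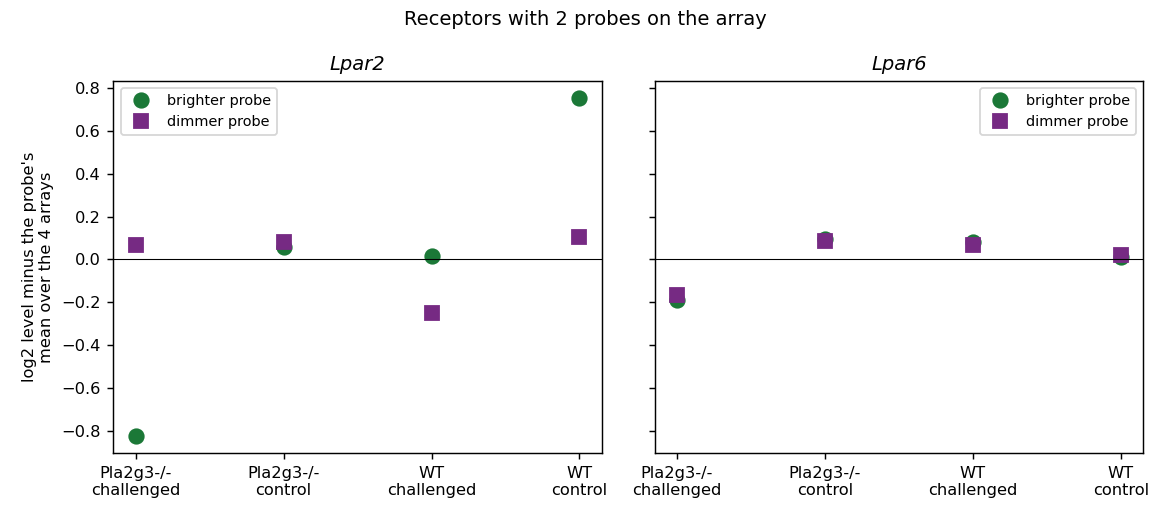
Log2 level of each probe of Lpar2 (left) and Lpar6 (right), minus that probe's mean over the 4 arrays, with arrays labelled Pla2g3-/- left of wild-type arrays. The Lpar2 probes part on the challenged array labelled Pla2g3-/- and on the wild-type control array, while the Lpar6 probes stay together on all 4 arrays.

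Lpar3 is an LPA receptor that favours unsaturated LPA species. It read 1674 and 2441 units on the challenged and control arrays labelled Pla2g3-/-, against 1988 and 2606 units on those of wild-type cells. Both challenged arrays were below both control arrays. The log2 difference with challenge was −0.65 in cells labelled Pla2g3-/- and −0.26 in wild-type cells, the second of which is close to the scanner error of 0.20. Between genotypes, Lpar3 differed by −0.38 with challenge and 0.02 without it.

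Lpar1, the most widely expressed LPA receptor in many tissues, read 62.0 and 63.3 units on the challenged and control arrays labelled Pla2g3-/-, against 59.8 and 63.4 units on those of wild-type cells. Its differences in the 4 contrasts, −0.14, 0.05, −0.08 and 0.11, were all under the scanner error.

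Of the P2Y-related receptors, Lpar4, known for roles in vessel formation, read 47.0 and 84.8 units on the challenged and control arrays labelled Pla2g3-/-, against 71.9 and 83.3 units on those of wild-type cells. Its signal was lower on the challenged array labelled Pla2g3-/- than on the other 3, which lay within 0.22 of each other on the log2 scale. The difference was −0.96 with challenge in cells labelled Pla2g3-/- and −0.08 with challenge in wild-type cells. With normexp background correction the first value was −0.51.

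Lpar6 is known in human skin and hair as the receptor altered in an inherited form of hair loss. Its brighter probe read 13334 and 15012 units on the challenged and control arrays labelled Pla2g3-/-, against 14686 and 15365 units on those of wild-type cells. The second probe read 9553 and 10551 units on the arrays labelled Pla2g3-/-, against 10259 and 10911 on the wild-type arrays. Both probes were lowest on the challenged array labelled Pla2g3-/-, with a range over the arrays of 0.28 and 0.25. Since the probes share bases, their likeness is not independent evidence. The difference of the brighter probe was −0.28 for challenge in cells labelled Pla2g3-/- and 0.07 in wild-type cells.

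All 5 LPA receptors were lower on the challenged array labelled Pla2g3-/- than on the control array of the same label, by 0.14 to 0.96 on the log2 scale, in a contrast where 57.8% of all genes were below 0. Against the wild-type challenged array the probes that stand for them were also all lower, by 0.08 to 0.84, where 60.2% of all genes were below 0. The 0.84 is the brighter Lpar2 probe, whose dimmer partner differed by 0.32 the other way. Both contrasts share the challenged array labelled Pla2g3-/-, so these are not separate observations, and the Lpar1 values lie within the scanner error. A shared direction was not particular to the LPA receptors. All 5 S1P receptors were lower with challenge in wild-type cells, by 0.18 to 0.82, where the median of all genes was −0.03. Of these, the S1pr2 and S1pr3 values lie within the scanner error. Neutrophil markers were higher on the challenged array labelled Pla2g3-/-. Of 7 measured, 5 were at least 2-fold higher with challenge under the Pla2g3-/- label (median 2.81), 5 with challenge in wild-type cells (1.67), 5 between the challenged arrays (1.74) and 1 between the control arrays (0.36). The shares of all genes that high were 3.86%, 1.81%, 3.84% and 3.19% in the same order. The neutrophil markers' summed level, in multiples of the array's 75th percentile, was 258 and 226 on the challenged and control arrays labelled Pla2g3-/-, against 247 and 236 on the wild-type arrays. Most of that sum was Ltf (lactoferrin), which read 334882 and 330128 units on the challenged and control arrays labelled Pla2g3-/-, against 331985 and 352857 on the wild-type arrays. Macrophage markers had medians of 0.91, −0.19, 0.76 and 0.03 in the same contrasts, with 2 of 8 at least 2-fold higher in the first and in the third. They summed to 52.7 and 30.0 on the challenged and control arrays labelled Pla2g3-/-, against 37.4 and 27.5 on the wild-type arrays. All 7 and all 8 were well above background on all 4 arrays. Medians of the fibroblast, smooth muscle and pericyte, eosinophil and mast cell, and alveolar epithelial lists lay between −0.33 and 0.38 in the 4 contrasts. The part of these cells in the LPA receptor values was not tested.

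**Figure D3:**
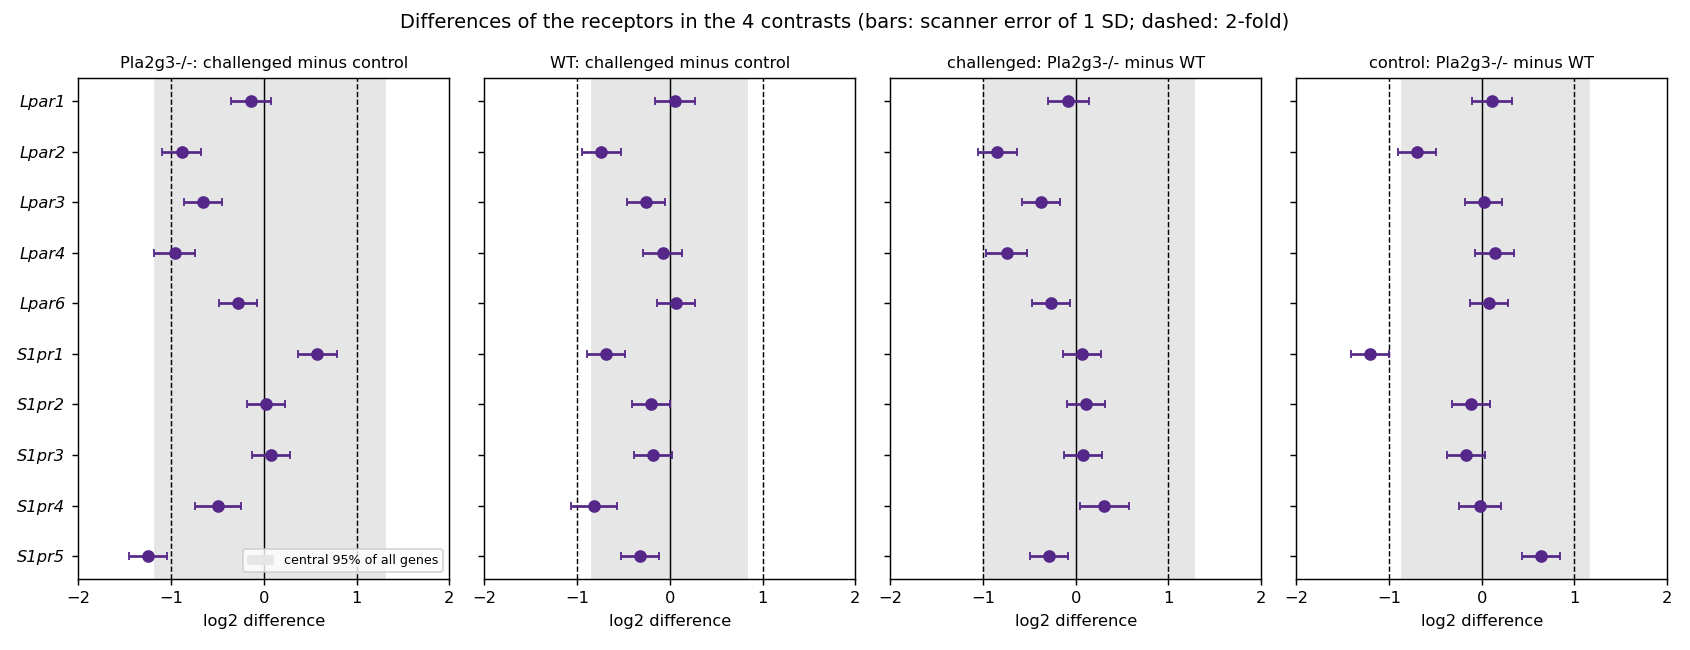
Log2 difference of each receptor in the 4 contrasts, with the scanner's error as bars, dashed lines at 2-fold and a grey band for the central range of all genes measured. S1pr5 with challenge under the Pla2g3-/- label (−1.25) and S1pr1 between the control arrays (−1.20) pass the dashed lines, and no receptor does so elsewhere.

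S1pr1, the main receptor of endothelial barrier function and lymphocyte exit, differed most between the control arrays. It read 167 and 104 units on the challenged and control arrays labelled Pla2g3-/-, against 146 and 258 units on those of wild-type cells. The control arrays lay at the 2 ends, with the wild-type one highest, and the challenged arrays between them differed by 0.07, less than the scanner error of 0.21. The difference between the control arrays was −1.20, or 2.30-fold lower in cells labelled Pla2g3-/-. Of all genes, 1.14% were at least as far below 0 in that contrast. The challenge effect was 0.58 in cells labelled Pla2g3-/- and −0.69 in wild-type cells.

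The difference between these challenge effects was 1.27 for S1pr1, and 1 of 10 receptors was at least 2-fold higher in this difference of differences, against 2.81% of all genes. No receptor was 2-fold lower in it, against 2.70% of all genes. At 1.5-fold, 1 was higher (S1pr1) and 2 were lower (Lpar4 and S1pr5), against 6.42% and 7.12% of all genes. Set against the other genotype's control array, the S1pr1 challenge effect turned its sign in both genotypes, to −0.62 in cells labelled Pla2g3-/- and 0.51 in wild-type cells. With normexp background correction the control arrays differed by −0.89 and the difference of differences was 0.90, both under 2-fold.

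Markers of 2 other cell types moved with S1pr1 in some contrasts and not in others. Of 10 endothelial markers, 5 were at least 2-fold higher with challenge in cells labelled Pla2g3-/- and 5 were lower by 2-fold or more between the control arrays, with medians of 1.04 and −0.85. The shares of all genes were 3.86% and 1.79%. With challenge in wild-type cells, where S1pr1 differed by −0.69, the endothelial median was −0.10 and 0 of 10 differed by 2-fold. Their summed level, in multiples of the array's 75th percentile, was 5.68 and 4.07 on the challenged and control arrays labelled Pla2g3-/-, against 4.90 and 5.50 on those of wild-type cells. Vwf, which encodes von Willebrand factor, read 3434 and 1033 units on the challenged and control arrays labelled Pla2g3-/-, against 2404 and 2500 units on the wild-type ones. The largest part of the endothelial sum on each array was Kdr. It read 5087 and 5075 units on the challenged and control arrays labelled Pla2g3-/-, against 4040 and 5707 on the wild-type arrays. Kdr thus differed by −0.11 with challenge in cells labelled Pla2g3-/- and by −0.05 between the control arrays. The endothelial marker Tie1 was too dim to pass the background limit on the control array labelled Pla2g3-/-, and the other 9 passed it on all 4 arrays. Of 8 B cell markers, 7 were at least 2-fold lower with challenge in wild-type cells and 6 were lower between the control arrays, with medians of −1.38 and −1.50. The shares of all genes that low were 1.68% and 1.79%. With challenge under the Pla2g3-/- label, where S1pr1 differed by 0.58, the B cell median was 0.12 and 0 of 8 differed by 2-fold. Their summed level was 2.32 and 2.21 on the challenged and control arrays labelled Pla2g3-/-, against 2.0 and 5.37 on the wild-type arrays, and all 8 were well above background on all 4 arrays. The part of either cell type in the S1pr1 values was not tested.

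S1pr5 is known for the movement of natural killer (NK) cells and for its place in oligodendrocytes. It read 145 and 319 units on the challenged and control arrays labelled Pla2g3-/-, against 162 and 222 units on those of wild-type cells. The control array labelled Pla2g3-/- was highest and both challenged arrays were lowest. The difference with challenge was −1.25 in cells labelled Pla2g3-/-, or 2.38-fold lower, and −0.32 in wild-type cells. Of all genes, 2.22% were at least as far below 0 for challenge in cells labelled Pla2g3-/-. Set against the wild-type control array, that difference was −0.61, and the wild-type one set against the control array labelled Pla2g3-/- was −0.96. The genotypes differed by −0.29 with challenge and 0.64 without it.

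T cell genes were also highest on the control array labelled Pla2g3-/-. The summed level of 8 markers of developing T cells, all of them well above background on every array, was 1.68 and 20.6 on the challenged and control arrays labelled Pla2g3-/-, against 0.88 and 1.13 on those of wild-type cells. The 8 general T cell markers summed to 5.81 and 29.9 on the challenged and control arrays labelled Pla2g3-/-, against 4.31 and 5.55 on the wild-type arrays, and all were well above background throughout. The 7 NK cell markers summed to 1.19 and 2.44 on the challenged and control arrays labelled Pla2g3-/-, against 1.31 and 1.22 on the wild-type arrays. The high sum on the control array labelled Pla2g3-/- was 1 gene, Gzma (granzyme A), which read 1670 and 3780 units on the challenged and control arrays labelled Pla2g3-/-, against 1792 and 1681 units on the wild-type arrays. Without it the other 6 summed to 0.34 and 0.38 on the arrays labelled Pla2g3-/-, against 0.32 and 0.37 on the wild-type arrays. Of these, Ncr1, a defining NK cell receptor gene, read 11.9 to 17.9 units, and Klre1 was well above background on 1 array. The part of these cells in the S1pr5 values was not tested.

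**Figure D4:**
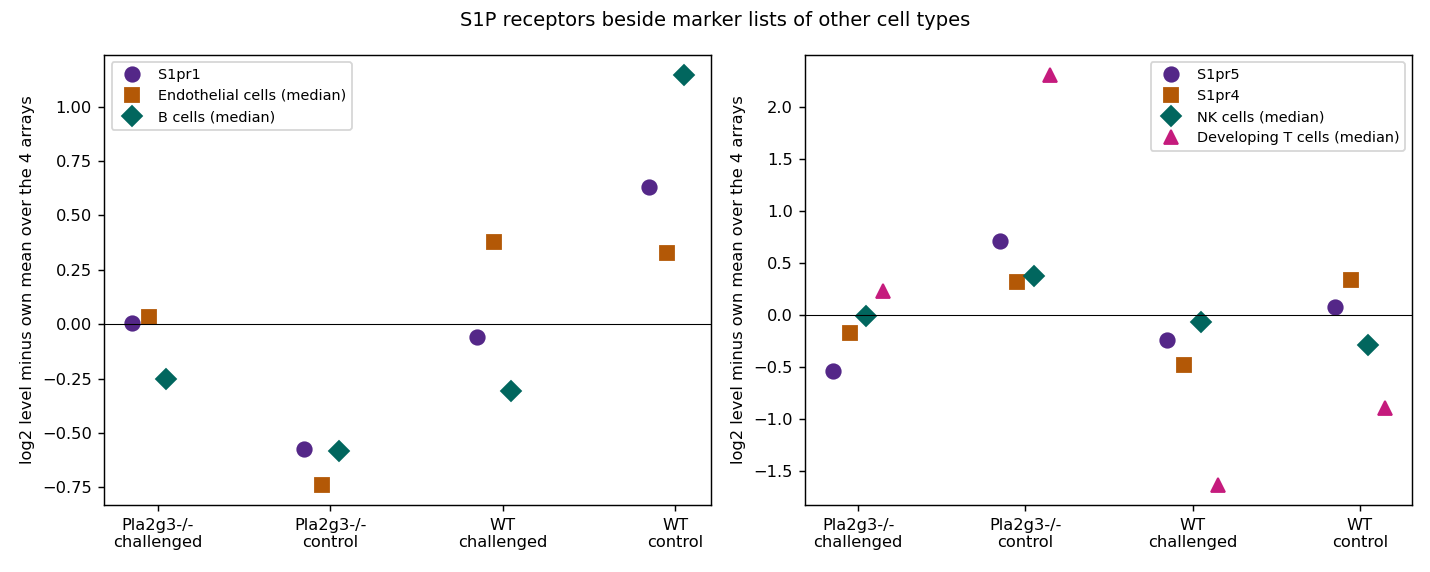
Log2 level of S1pr1 (left) and of S1pr5 and S1pr4 (right) beside the median level of marker lists, each minus its own mean over the 4 arrays, with arrays labelled Pla2g3-/- left of wild-type arrays. S1pr1 and both lists beside it are lowest on the control array labelled Pla2g3-/-, where S1pr5 and the developing T cell list are highest.

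The other S1P receptors differed less. S1pr2, which couples to the G12/13 proteins, read 481 and 438 units on the challenged and control arrays labelled Pla2g3-/-, against 408 and 515 units on the wild-type arrays. S1pr3, a receptor of vessel and smooth muscle cells, read 285 and 250 units on the challenged and control arrays labelled Pla2g3-/-, against 246 and 305 units on the wild-type arrays. Neither differed by more than the scanner error in any of the 4 contrasts, with ranges over the arrays of 0.20 and 0.18.

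S1pr4, expressed mainly in blood and lymphoid cells, had a dim probe. It read 26.7 and 34.8 units on the challenged and control arrays labelled Pla2g3-/-, against 19.7 and 38.2 units on those of wild-type cells. Both challenged arrays were below both control arrays. The difference with challenge was −0.49 in cells labelled Pla2g3-/- and −0.82 in wild-type cells, with a scanner error of 0.25 each. With normexp background correction the wild-type value was −0.28.

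Genes that make or remove these lipids were mostly alike on the 4 arrays. Of 12 measured genes of S1P making, breakdown and transport, 0 differed by 2-fold in any of the 4 contrasts, against 12.7% of all genes, and their medians lay between −0.18 and −0.03. Of 10 measured genes of LPA making and breakdown, 1 did. This was Enpp2, which encodes autotaxin, with 1044 and 496 units on the challenged and control arrays labelled Pla2g3-/-, against 346 and 786 units on those of wild-type cells. Its challenge effect was 0.96 in cells labelled Pla2g3-/- and −1.05 in wild-type cells, and the genotypes differed by 1.46 with challenge and −0.55 without it.

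Of 6 other lysophospholipid receptors measured, 3 differed by 2-fold in at least 1 of the 4 contrasts, as 12.7% of all genes did. Gpr174, a receptor for lysophosphatidylserine on lymphocytes, read 23.7 and 88.3 units on the challenged and control arrays labelled Pla2g3-/-, against 18.7 and 88.3 units on the wild-type arrays. It was thus lower with challenge by 2.01 in cells labelled Pla2g3-/- and by 2.10 in wild-type cells. P2ry10, also a lysophosphatidylserine receptor of lymphocytes, differed by −1.81 and −1.25 with challenge in the same order, and by 0.74 with and 1.30 without challenge between genotypes. Gpr132, a receptor linked to lysophospholipids and oxidised fatty acids, was higher in cells labelled Pla2g3-/- by 1.26 with challenge and 1.41 without it. Lpar5, an LPA receptor outside the 10 members, differed by −0.12 and −0.30 with challenge and by −0.01 and −0.18 between genotypes. Between the control arrays the medians of the T and B cell markers were 3.28 and −1.50. There Gpr174 differed by 0.12, P2ry10 by 1.30 and Gpr132 by 1.41. The part of these cells in the values of the 3 receptors was not tested.

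Of 10 measured YAP and SRF target genes, a group that LPA and S1P signalling is known to raise in cultured cells, 2 differed by 2-fold in at least 1 of the 4 contrasts, as 12.7% of all genes did. Ccn2, which encodes connective tissue growth factor, read 8335 and 11648 units on the challenged and control arrays labelled Pla2g3-/-, against 19143 and 44574 units on the wild-type arrays. It was lower in cells labelled Pla2g3-/- by 1.33 with challenge and by 1.82 without it. Thbs1, the gene of thrombospondin 1, had a challenge effect of 0.99 in cells labelled Pla2g3-/- and −0.60 in wild-type cells. Between genotypes it differed by 0.35 with challenge and −1.24 without it, and only the value without challenge passed 2-fold.

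Among genes tied to lymphocyte exit, Cd69, whose protein takes S1pr1 off the cell surface, was higher by 1.58 in cells labelled Pla2g3-/- with challenge and by 0.43 without it. The challenge effect of Cd69 was 0.95 in cells labelled Pla2g3-/- and −0.20 in wild-type cells. Ccr7, a lymph node homing receptor, had a challenge effect of 0.26 in cells labelled Pla2g3-/- and −1.24 in wild-type cells. Between genotypes Ccr7 differed by 0.51 with challenge and −0.99 without it. Of 6 genes measured in this list, 3 differed by 2-fold in at least 1 of the 4 contrasts, as 12.7% of all genes did. Cd69 and Ccr7 were named for that reason, and the remaining one is not reported here.

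**Figure D5:**
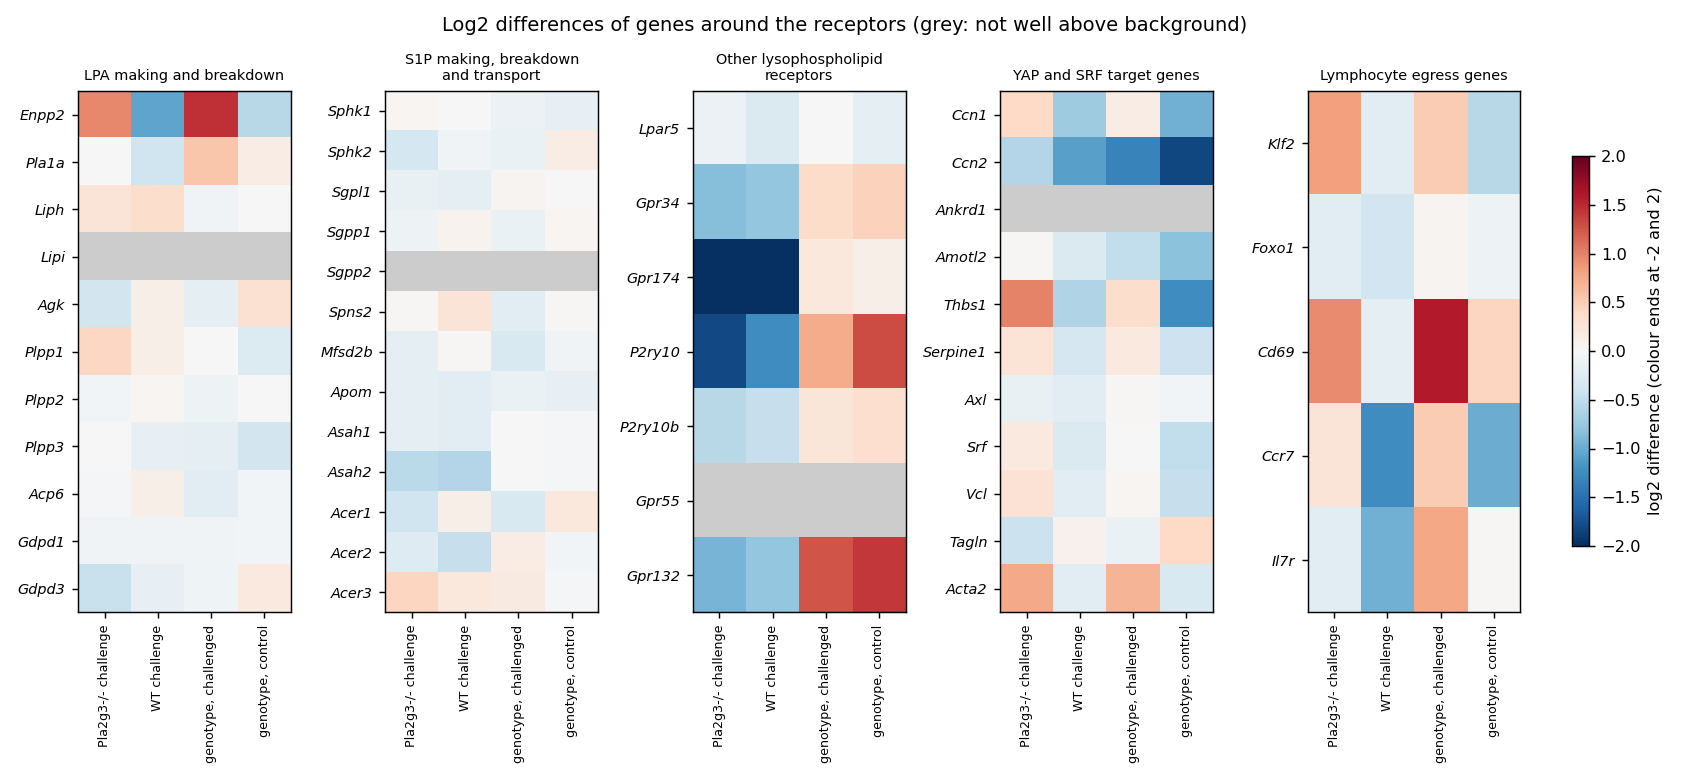
Log2 differences of genes of 5 lists around the receptors in the 4 contrasts (red higher, blue lower in the first-named group, with genotype columns as cells labelled Pla2g3-/- minus wild type; grey, not well above background). Both metabolic lists are pale apart from Enpp2, while the lymphocyte receptors Gpr174 and P2ry10 are dark blue for challenge in both genotypes.

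The 3 receptors with a range of at least 2-fold over the arrays, as 11.7% of genes had, were set beside the genes most like them over the 4 arrays among 16448 genes. The measure was the root mean square distance between log2 levels after each gene's own mean was taken off. Nearest to Lpar2 were Myh7b (0.05), Myh7 (0.06) and Sult1b1 (0.07), with 21 genes within 0.15. Nearest to S1pr1 were Gpr61 (0.06), Cybb (0.08) and Ccn1 (0.10), with 23 genes within 0.15. Nearest to S1pr5 were Pdk1 (0.03), Nt5dc2 (0.04) and Cirbp (0.04), with 62 within 0.15. Over 4 arrays such likeness is a description only.

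The 4 arrays together were fitted in limma with genotype and challenge as added terms, which, with 1 residual degree of freedom, was the only test across arrays. This fit called 0 of 10 receptors for challenge and 0 for genotype after Benjamini-Hochberg adjustment over 22234 genes, of which it called 0.0225% and 0.0360%. At an unadjusted p under 0.05 it counted 4 receptors for challenge and 1 for genotype, against 15.7% and 12.5% of all genes. Lpar2 came nearest, with a challenge effect of −0.81 ± 0.17 (SE) at an adjusted p of 0.204 in limma and a genotype effect of −0.77 ± 0.17 at an adjusted p of 0.214. These Lpar2 values are of its brighter probe alone, and the dimmer probe did not show that pattern. The fit takes any difference between the challenge effects as error, and that is 1.27 for S1pr1.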

How the data were processed

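Each array's deposited file gives spot intensity as read by Agilent Feature Extraction 11.5.1.1 (version from the submitters' processing notes), and its probes are placed on mm9, per the file headers. The authors' value table holds that intensity divided by each array's 75th percentile, as found by comparison with the scanner values. All 4 arrays were on 1 slide, 1 group each, so the effects of position on the slide and of group cannot be told apart.

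From the log2 processed signal of 43020 non-control spots, each array's 75th percentile was subtracted. Outlier spots (128 to 155 per array) were dropped and no spot was saturated. Per array, 78.7% to 81.5% of probes stood well above background, with a median local background of 25 to 25.5 units. On all 4 arrays, 22234 of 28663 genes did. Repeated spots of 1 probe gave a median SD of 0.09 to 0.10 for a difference, or 0.17 to 0.22 for dimmer probes (a limit set after the data were seen). The number of arrays limits the precision.

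Of 39429 probes, 28330 took their symbol from a RefSeq table (GRCm38.p6, names only). A gene was its brightest probe by mean level. A probe not well above background on 1 of 2 arrays gave a bound, and on both gave no value. Differences between arrays were counted at 2-fold. The additive fit used limma 3.58.1 in R 4.3.3 with a trend on the mean level. The challenge term of that fit was tested on simulated data with independent noise. The simulation held no genotype effect and no difference between the challenge effects, so it cannot show how the fit behaves where these are present.

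The receptors, the 6 pathway lists, the 12 cell type lists and the rule for named genes were chosen with earlier results of these data known. Named were all members, up to 4 genes per pathway list that differed by 2-fold in a contrast, and 3 nearest genes per receptor with a 2-fold range. Lpar5, Scgb1a1, Krt5, Foxj1, Vwf, Kdr, Tie1, Ncr1, Klre1, Gzma and Ltf were named after their values were seen. 1 pathway list and 1 gene of another are not reported here, and 4 cell type lists are given by the range of their medians. The alternatives tried were normexp (offset 50), quantile normalization, centring on the median, the series matrix, the mean of a gene's probes, other filters on dim probes, a 1.5-fold threshold, the other control array and a limma fit without a trend. The set of genes fitted was settled after 3 versions had been run with results visible.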

Additional observations from a re-analysis of the deposited data

Results flagged for a closer look

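3 genes had challenge effects of opposite sign in the 2 genotypes, each beyond 2 scanner errors, a limit set after the data were seen. For S1pr1 the effect was 0.58 in cells labelled Pla2g3-/- and −0.69 in wild-type cells, a difference of 1.27. For Enpp2 it was 0.96 in cells labelled Pla2g3-/- and −1.05 in wild-type cells, a difference of 2.01. For Thbs1 it was 0.99 in cells labelled Pla2g3-/- and −0.60 in wild-type cells, a difference of 1.59, and the control arrays differed by −1.24. With 1 array per group, none of these differences was tested.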

How the results depend on the processing

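No paired analysis was possible because each group was 1 array. At a 1.5-fold threshold, 4 receptors were lower with challenge in cells labelled Pla2g3-/- (9.95% of all genes) and 3 in wild-type cells (5.25%), 2 were lower between the challenged arrays (7.14%), 1 was higher (6.62%) and 2 lower (5.80%) between the control arrays, and 2 were lower in the difference of challenge effects (7.12%). Normexp background correction left 0 receptors 2-fold lower between the control arrays and 0 higher in the difference of challenge effects, and moved 10 of 50 receptor differences by more than the scanner error, with Lpar2 at −0.59 for challenge in cells labelled Pla2g3-/-, −0.53 in wild-type cells, and −0.54 with and −0.48 without challenge between genotypes. It also reduced the share of all genes 2-fold higher and lower, to 0.533% and 0.237% for challenge in wild-type cells. Under quantile normalization, median centring, the series matrix, both filters on dim probes and probe averaging, the 2-fold counts were the main ones, while averaging the probes moved 3 of 50 differences, all of Lpar2. With the other control array as baseline, 6 of 20 challenge effects moved and 6 changed sign. Lpar2 then gave −1.58 in cells labelled Pla2g3-/- and −0.04 in wild-type cells. The additive fit called 0 receptors under every alternative run, including 2 other sets of genes chosen after seeing the data: 19202 genes without those named only by an accession, and 23750 with probes that have no gene name. Over all genes its genotype calls were 7 and 1 in those sets against 8 in the main one, and its challenge calls were 5 in each. Without a trend in the variance prior it called 0 genes for challenge and 0 for genotype, with 2907 and 2832 at an unadjusted p under 0.05. Signal over background limits S1pr4 and the dimmer Lpar2 probe, whose signals were 12.4 to 38.2 units. The cause of these shifts was not tested.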
